A study of Mus musculus with 16 samples.

Results

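The comparison described here asks whether loss of Etv6 changes how far 2 kinds of mouse spleen dendritic cell lie from each other in their transcriptomes, and through which genes. It uses 8 of the 16 RNA-seq libraries of the study, 2 each of Dec205 CKO, Dec205 WT, pDC CKO and pDC WT. The measure for each gene is the interaction of genotype and subset, that is, the log2 fold change of CKO over WT in Dec205 cells minus the same fold change in pDC. Of 24116 genes in the count table, 22993 were placed on autosomes, and 12714 of these passed the filter on low counts. The other 8 libraries, of the Esamlo and Esamhi subsets, enter only where they are named.

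The labels name 2 genotypes, CKO and WT, and the study's title and design text name Etv6 as the gene under study. Dec205 and pDC are the subset names in the labels, and the cells were sorted from spleen. The labels give no strain, age, sex or treatment, and do not name a floxed allele, the recombinase that deletes it or the cells in which it acts. Nothing in the labels states that replicate libraries are different animals, and the p-values below therefore reflect only the variation among the libraries, possibly technical.

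DEC205 is an endocytic receptor encoded by Ly75 that marks the conventional dendritic cells called cDC1 in spleen. These cells take up dying cells, present their antigens to CD8 T cells and depend on the factors Irf8, Batf3 and Id2. Plasmacytoid dendritic cells (pDC) are the main rapid producers of type I interferon and depend on Tcf4. Etv6 is an ETS-family transcription factor known mainly as a repressor.

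The 8 libraries held between 14434287 and 19727827 counts, in which 12806 to 14187 genes were detected, so depth differed little between groups. The subset labels fitted their defining markers in both genotypes. The summed level of 9 cDC1 markers was 3958 and 4827 CPM (counts scaled to a common library size) in Dec205 CKO and 4513 and 4610 CPM in Dec205 WT, against 391 to 439 CPM over the 4 pDC libraries. The summed level of 8 pDC markers was 432 and 296 CPM in Dec205 CKO and 235 and 225 CPM in Dec205 WT, against 13820 to 16147 CPM in the pDC libraries. Of these 8, the pDC marker Klk1 stayed near 0 in Dec205 cells, at 0.315 and 0.0650 CPM in CKO and 0.152 and 0.135 CPM in WT. The sum of the 8 was higher in both Dec205 CKO libraries than in both Dec205 WT libraries, so Klk1 alone does not stand for the set. The summed level of 19 B cell markers was 1517 and 766 CPM in Dec205 CKO and 451 and 451 CPM in Dec205 WT, with 1528 and 1432 CPM in pDC CKO and 1251 and 1205 CPM in pDC WT. Both Dec205 CKO libraries lay above both Dec205 WT libraries in these transcripts, replicate 1 the most. Of the 18 markers tested, 3 were higher in Dec205 CKO (against 1.31% of all tested genes) and none lower. Some results are also given without replicate 1. In bulk samples, fewer cells of a type and less RNA per cell cannot be told apart.

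The targeted gene was measured at 210 and 220 CPM in Dec205 CKO, against 337 and 375 CPM in Dec205 WT. In pDC, Etv6 had 371 and 327 CPM in CKO and 352 and 355 CPM in WT, and the genotypes overlapped. Its counts fell by 0.73 ± 0.10 on the log2 scale in Dec205 CKO (SE, edgeR adjusted p = 0.0121), and its interaction of -0.71 missed the threshold (adjusted p = 0.110). A count over the whole gene includes exons outside a deleted part, which the labels do not name, so these values do not measure how complete the deletion was.

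Sex coincided with genotype in all 8 libraries. Xist, transcribed from the inactive X chromosome, had 128 and 114 CPM in Dec205 CKO and 159 and 202 CPM in pDC CKO, against 0 and 0.0677 CPM in Dec205 WT and 1.47 and 0 CPM in pDC WT. The Y-linked gene Ddx3y had 1.99 and 0.0650 CPM in Dec205 CKO and 0.0540 and 0.0544 CPM in pDC CKO, against 105 and 149 CPM in Dec205 WT and 173 and 139 CPM in pDC WT. Genotype and sex cannot be told apart in any comparison below, and sex-linked genes are not reported.

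The Dec205 and pDC profiles lay closer together in CKO than in WT. The distance was taken as the root mean square, over the 12714 genes, of the difference in log2 CPM. Between single libraries it was 2.06, 2.09, 2.15 and 2.17 for the 4 Dec205 to pDC pairs of CKO, against 2.23, 2.28, 2.35 and 2.38 for the 4 pairs of WT. No CKO pair reached the lowest WT pair, although the 4 pairs of a genotype share libraries and are not independent. Between group means the distance was 2.02 in CKO and 2.2 in WT, a change of -8.04%. The Spearman correlation across genes ran from 0.810 to 0.819 in CKO pairs and from 0.789 to 0.795 in WT pairs. The 2-sided exact permutation test of genotype within each subset gave p = 0.0556, which is the smallest value that its 36 assignments allow, so this design cannot reach 0.05.

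**Figure D1:**
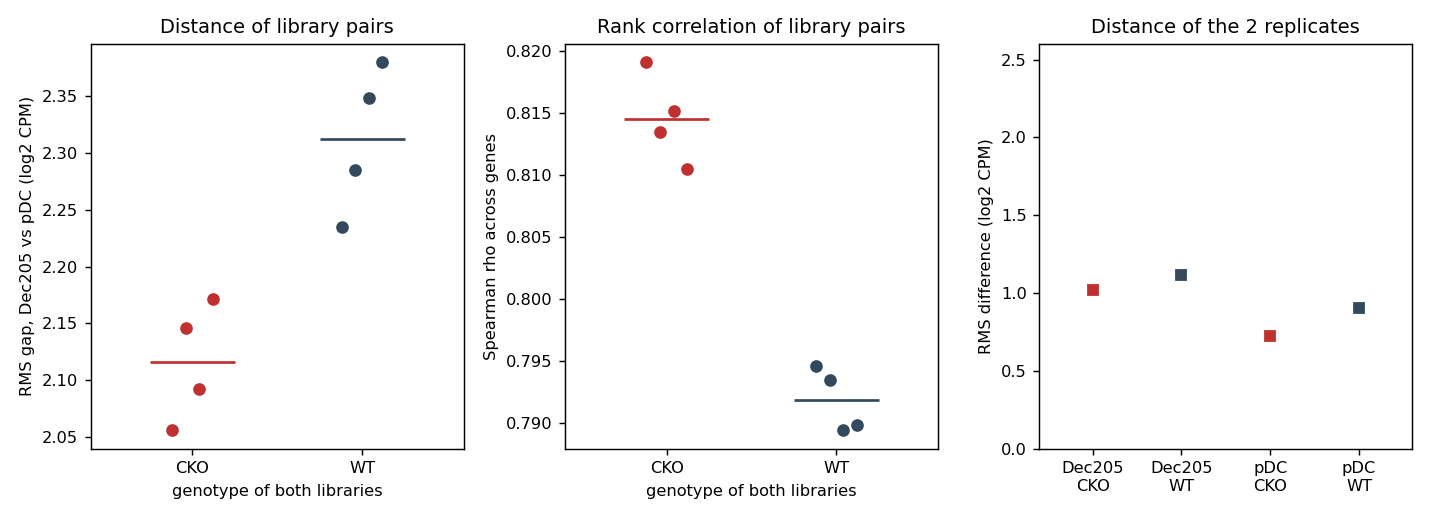
Distance between Dec205 and pDC profiles over 12714 autosomal genes. Left, the root mean square gap in log2 CPM of each of the 4 library pairs per genotype (points, line at the mean; the axis does not start at 0); middle, the Spearman correlation of the same pairs; right, the distance between the 2 replicates of each group. All 4 CKO pairs lie between 2.06 and 2.17, below the WT pairs at 2.23 to 2.38.

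Replicates of WT were farther from each other than those of CKO, which by itself adds to a distance. The 2 replicates differed by 1.02 in Dec205 CKO against 1.12 in Dec205 WT, and by 0.722 in pDC CKO against 0.901 in pDC WT, on the same scale. A distance formed from the product of the gaps of separate replicates, which noise within a replicate does not inflate, was 1.92 in CKO and 2.08 in WT, a change of -7.49%. Of the fall in the mean squared gap measured this way, 58.5% came through the Dec205 libraries and 41.5% through the pDC libraries. The size between group means changed when 1 library was left out. Without replicate 1 or 2 of Dec205 CKO the change was -3.78% or -5.04%, and of pDC CKO -4.01% or -8.31%. Without replicate 1 or 2 of Dec205 WT it was -13.2% or -8.79%, and of pDC WT -10.8% or -9.13%. A group cut to 1 library carries more replicate noise, which by itself adds to the distance of that genotype. These values therefore cannot tell how far the size rests on particular libraries.

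The fall was spread over many genes and was the balance of larger movements in both directions. The squared gap was smaller in CKO for 7152 genes and larger for 5562 genes. The falls summed to -21894 and the rises to 12410 squared log2 units. These counts and sums use group means and are not corrected for the larger difference between WT replicates. Of the 12714 genes, 7223 (56.8%) moved in the narrowing direction, meaning that the interaction had the sign opposite to the mean gap over both genotypes. Among the 2047 genes that were higher in Dec205 (mean gap of at least 1 on the log2 scale and edgeR adjusted p under 0.05), 64.6% narrowed, and the median log2 fold change of CKO over WT was -0.13 in Dec205 and 0.08 in pDC. Among the 1859 genes that were higher in pDC by the same rule, 60.7% narrowed, with a median of 0.12 in Dec205 and 0.00 in pDC.

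The genes that changed within each subset were counted by the side of the gap on which they lie. Between CKO and WT, 275 genes differed in Dec205 cells (2.16% of those tested), 167 higher (1.31%) and 108 lower (0.849%). Of the 1859 pDC-side genes, 88 (4.73%) rose in Dec205 CKO and 29 (1.56%) fell. Of the 2047 Dec205-side genes, 41 (2.00%) fell in Dec205 CKO and 24 (1.17%) rose. In pDC, 43 genes changed (0.338%), 40 higher (0.315%) and 3 lower (0.0236%). Of the 40, 21 were Dec205-side genes (1.03% of that side). Another 5 were pDC-side genes (0.269% of that side, near the 0.315% of all tested genes). All 3 lower genes were Dec205-side genes, for which a fall in pDC is the widening direction. The number of genes that separated the subsets was 4490 in CKO (35.3%) and 4953 in WT (39%). Of these, 2355 (18.5%) were higher and 2135 (16.8%) lower in Dec205 in CKO, and 2589 (20.4%) were higher and 2364 (18.6%) lower in WT. Which genotype had more such genes turned over in each fit without 1 WT library, so these counts do not measure the distance.

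The interaction itself was called in 61 genes, 0.48% of those tested, at an adjusted p under 0.05 in edgeR's quasi-likelihood test. It was positive in 29 (0.228%) and negative in 32 (0.252%), and every choice of 1 library per group gave the same sign in all 61. The gap narrowed in 49 of them (0.385%) and widened in 12 (0.0944%), so 80.3% narrowed, against 56.8% of all tested genes. Dec205 and pDC changed order in 15 of the 61. The CKO effect was called in Dec205 cells for 47 of the genes, against 2.16% of all tested genes. It was called in pDC for 12 (1 of them in both), against 0.338% of all, and in neither for 3. A subset gap called in WT was no longer called in CKO for 12 genes, and the reverse held for 6. Picking genes by the interaction favours all of these changes, so the counts are no separate result about the genes.

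Without a correction, 1352 genes had p under 0.05, and the number called depended strongly on the fit. The fit over all 16 libraries called 322 genes, DESeq2 called 407, and fits without 1 library called between 5 and 93. Without pDC CKO replicate 1 or replicate 2 it was 5 each time, without pDC WT replicate 2 it was 8, without pDC WT replicate 1 it was 17, and without Dec205 WT replicate 2 it was 30. All 61 genes kept their direction in each of these fits. That was largely fixed beforehand, because they were called in these libraries and every choice of 1 library per group gave the same sign. The 61 genes held 7.46% of the net fall in squared gap, which is not corrected for replicate spread. The greater part of that fall thus lay in genes that were not called one by one.

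**Figure D2:**
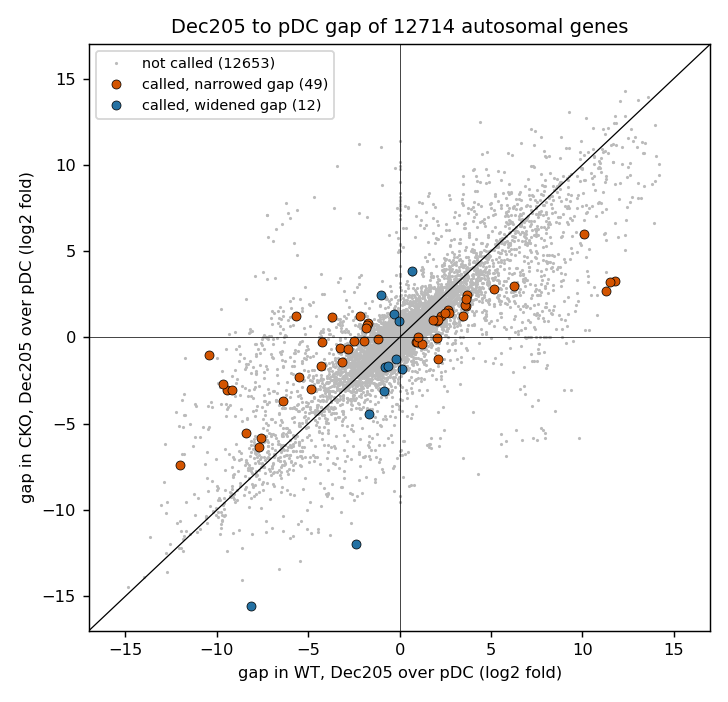
Gap between Dec205 and pDC (log2 fold, Dec205 over pDC) of each autosomal gene in CKO (vertical axis) and WT (horizontal axis). Of the 61 called genes, the 49 with a narrowed gap (orange) lie on the side of the diagonal nearer 0 in CKO, and the 12 with a widened gap (blue) lie farther from 0; grey points are the genes not called.

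The first group of narrowed genes consisted of 25 genes that were nearer to pDC levels, or above them, in Dec205 CKO. In all 25 the CKO effect was larger in Dec205 cells than in pDC. They included Runx2, Ly6a and Ly6c2 from the pDC identity list and Ifi44 and Ifi47 from the interferon list.

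Plac8 encodes a small cysteine-rich protein found in pDC and other leukocytes. It had 1888 and 2123 CPM in Dec205 CKO and 308 and 340 CPM in Dec205 WT, and 1127 and 1315 CPM in pDC CKO and 1092 and 1134 CPM in pDC WT. Dec205 cells thus lay above pDC in CKO and below them in WT, while the pDC groups were close to each other. The fold of mean CPM was 6.19 in Dec205 and 1.10 in pDC, and the interaction was 2.5 ± 0.15 (SE, log2, edgeR adjusted p = 0.00140). Among the 34 called genes picked by the naming rule, Plac8 was 1 of 3, with Cd8a and Mctp2, that stayed called in all 8 fits without 1 library. Stmn1, Tlr12, Rab38 and Hrh1 stayed called in 0 of these fits, and Arhgap31, Cd24a, Cdca7, Cdkn2b, Col17a1, Il9r and Tmem123 in 1 each. The gene lies on chromosome 5 at 100551589-100572253 (GRCm38.p6, the assembly of mm10). One of its RefSeq promoter windows, chr5:100563047-100563346 on the minus strand, is shown because it carries a match to the ETS core motif CCGGAA, here on the opposite strand and in capitals, starting 153 bases before the start site.

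Plac8 promoter: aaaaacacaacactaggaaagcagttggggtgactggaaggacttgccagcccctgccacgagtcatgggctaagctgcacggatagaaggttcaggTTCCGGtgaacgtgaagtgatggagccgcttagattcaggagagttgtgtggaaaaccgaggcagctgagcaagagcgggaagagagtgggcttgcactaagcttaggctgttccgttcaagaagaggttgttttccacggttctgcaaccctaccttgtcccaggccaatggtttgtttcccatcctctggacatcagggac

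Such matches were not frequent among the called genes. A promoter window was given for 45 of the 61, and 7 of these (15.6%) held CCGGAA on either strand, against 30.9% of the 10070 tested autosomal genes with a window. A motif like the interferon response element (GAAA, any 2 bases, GAAA, on either strand) was in 3 of the 45 (6.67%), against 3.97% of all and 61.7% of the 47 interferon response genes with a window. The windows run from 250 bases before to 50 bases after the start site, and a match or its absence in them says nothing about binding.

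Fam217b and Ppp1r3d moved together. Ppp1r3d, a regulatory subunit that directs protein phosphatase 1 to glycogen, had 85.3 and 79.6 CPM in Dec205 CKO and 0.835 and 0 CPM in Dec205 WT, with 38.6 and 30.8 CPM in pDC CKO and 25.4 and 16 CPM in pDC WT. Fam217b had 40.2 and 40.4 CPM in Dec205 CKO and 0.835 and 0.948 CPM in Dec205 WT, with 20.2 and 14.7 CPM in pDC CKO and 12.6 and 10.4 CPM in pDC WT. Both were close to 0 in Dec205 WT and in no other group, and in CKO both were higher in Dec205 than in pDC. Their interactions were 6.92 ± 0.85 for Ppp1r3d (adjusted p = 0.0232) and 4.88 ± 0.42 for Fam217b (adjusted p = 0.00674). The genes are read in opposite directions from start sites 71 bases apart on chromosome 2, and their annotated spans overlap by 760 bases. Since the library kit does not mark strand, reads from the overlap cannot be told apart, and the genes are not 2 independent results. The Fam217b window, chr2:178414284-178414583 on the plus strand (GRCm38.p6, RefSeq), is shown because 170 of its bases, in capitals, also belong to the Ppp1r3d window.

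Fam217b promoter: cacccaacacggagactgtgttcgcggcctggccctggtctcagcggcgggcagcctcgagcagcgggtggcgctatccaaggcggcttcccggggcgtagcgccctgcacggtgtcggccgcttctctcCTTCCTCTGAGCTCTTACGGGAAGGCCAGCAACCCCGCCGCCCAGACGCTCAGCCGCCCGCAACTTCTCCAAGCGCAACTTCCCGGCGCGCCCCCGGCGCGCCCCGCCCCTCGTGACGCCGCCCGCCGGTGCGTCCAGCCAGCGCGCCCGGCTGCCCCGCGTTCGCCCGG

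Runx2, a runt-family transcription factor that pDC need to leave the bone marrow, had 114 and 159 CPM in Dec205 CKO and 11 and 19.5 CPM in Dec205 WT. In pDC it had 647 and 710 CPM in CKO and 718 and 673 CPM in WT, and the genotypes overlapped. Dec205 cells thus reached 20.1% of the mean pDC level in CKO and 2.19% in WT, with an interaction of 3.19 ± 0.35 (adjusted p = 0.0144). Mctp2, a membrane protein with calcium-binding C2 domains, had 2.62 and 3.25 CPM in Dec205 CKO and 0.152 and 0.0677 CPM in Dec205 WT, against 520 and 459 CPM in pDC CKO and 460 and 502 CPM in pDC WT. The Dec205 WT level rested on 3 counts, so the ratio of CKO to WT was 27.1 with an exact 95% counting interval of 8.99 to 133. Even in CKO, Dec205 cells held 0.600% of the pDC level, so this narrowing of 4.65 ± 0.40 on the log2 scale (adjusted p = 0.00674) lay far below the level of pDC.

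Other pDC-side genes were close to absent in Dec205 WT. Card6, of the caspase-recruitment domain family, had 13.4 and 9.10 CPM in Dec205 CKO and 0 and 0.135 CPM in Dec205 WT, with 83.5 and 63.9 CPM in pDC CKO and 67.2 and 62.0 CPM in pDC WT. Its ratio in Dec205 was 161 with a counting interval of 44.2 to 1331, since Dec205 WT held 2 counts. Arhgap24 had 10.3 and 4.03 CPM in Dec205 CKO and 0 and 0.135 CPM in Dec205 WT, and 46.7 to 66.4 CPM over the pDC libraries. The kinase gene Cdk20 had 3.88 and 3.25 CPM in Dec205 CKO and 0.0759 and 0 CPM in Dec205 WT, and 21.6 to 34.7 CPM over the pDC libraries. The adjusted p of the interaction was 0.0114 for Card6, 0.0468 for Arhgap24 and 0.0319 for Cdk20. Thrombomodulin (Thbd) was at 0 counts in both Dec205 WT libraries and at 3.88 and 4.94 CPM in Dec205 CKO, which makes it at least 41.1-fold higher when Dec205 WT is set to the floor of 3 counts. It lies outside the naming rule, because no group reached a mean of 10 CPM, and is named here after its values were seen.

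Prkca, Gas7 and Il9r were low in Dec205 WT and higher in Dec205 CKO. Prkca, protein kinase C alpha, had 4.57 and 3.51 CPM in Dec205 CKO and 0.456 and 0.812 CPM in Dec205 WT, against 189 and 184 CPM in pDC CKO and 227 and 216 CPM in pDC WT (interaction 2.89 ± 0.32, adjusted p = 0.0144). Gas7, an actin-binding protein, had 10.2 and 7.74 CPM in Dec205 CKO and 1.52 and 2.10 CPM in Dec205 WT, against 115 and 118 CPM in pDC CKO and 157 and 147 CPM in pDC WT (interaction 2.68 ± 0.28, adjusted p = 0.0143). The interleukin 9 receptor gene Il9r had 28.1 and 17.9 CPM in Dec205 CKO and 3.8 and 4.40 CPM in Dec205 WT, and 10.2 and 8.98 CPM in pDC CKO and 16.4 and 19.9 CPM in pDC WT. Il9r thus stood higher in Dec205 than in pDC only in CKO (interaction 3.40 ± 0.47, adjusted p = 0.0333). It stayed called in 1 of the 8 fits without 1 library.

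The Ly6 genes on chromosome 15, which encode surface proteins anchored by a lipid, had called members in the same direction. Ly6a, the stem cell antigen Sca-1, had 348 and 180 CPM in Dec205 CKO and 43.2 and 54.4 CPM in Dec205 WT, with 819 and 835 CPM in pDC CKO and 968 and 958 CPM in pDC WT (interaction 2.66 ± 0.38, adjusted p = 0.0374). The higher of its Dec205 CKO values was in replicate 1, the Dec205 library with the most B cell transcripts. Ly6c2 had 20.0 and 16.9 CPM in Dec205 CKO and 10.2 and 9 CPM in Dec205 WT, against 1390 and 1574 CPM in pDC CKO and 2011 and 1971 CPM in pDC WT (interaction 1.38 ± 0.16, adjusted p = 0.0197). Ly6c1 had 5.82 and 4.68 CPM in Dec205 CKO and 2.35 and 1.83 CPM in Dec205 WT, against 287 and 323 CPM in pDC CKO and 397 and 395 CPM in pDC WT (interaction 1.72 ± 0.23, adjusted p = 0.0319). For all 3 the pDC CKO libraries lay below the pDC WT libraries, a difference that was not called in pDC. Ly6c1 and Ly6c2 are near-identical copies that can share reads and are uncertain for that reason.

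Plac8, Ly6c1 and Ly6c2 are also the called members among 15 tested monocyte markers, of which 4 were higher in Dec205 CKO (against 1.31% of all tested genes) and none lower. The fourth was Ms4a4c, at 29.3 and 31.5 CPM in Dec205 CKO and 4.63 and 10.6 CPM in Dec205 WT. It was also higher in pDC CKO, at 47.4 and 49.0 CPM against 11.3 and 16.6 CPM in pDC WT. That difference was not called in pDC, and its interaction was not called. The summed level of the 19 monocyte markers in the table was 5968 and 7222 CPM in Dec205 CKO and 4707 and 4192 CPM in Dec205 WT. Without Plac8, Ly6c1 and Ly6c2 it was 4054 and 5078 CPM in Dec205 CKO and 4387 and 3841 CPM in Dec205 WT, and the genotypes overlapped. Most of that remainder was Nr4a1, at 2888 and 3397 CPM in Dec205 CKO and 3059 and 2663 CPM in Dec205 WT. The overlap therefore says little about the other members. The monocyte receptor gene Ccr2 had 38.3 and 51.5 CPM in Dec205 CKO and 25.9 and 28.6 CPM in Dec205 WT and was not called, Csf1r had 9.24 and 11.3 CPM in Dec205 CKO and 8.81 and 39.5 CPM in Dec205 WT, and Chil3 was at 0 in all 4 Dec205 libraries. The part of monocyte transcripts in the 3 called genes was not tested.

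Ifi44 and Ifi47, both induced by interferons, were the called members of the interferon list. Ifi44 had 32.1 and 49.4 CPM in Dec205 CKO and 2.35 and 3.99 CPM in Dec205 WT, against 43.1 and 56.4 CPM in pDC CKO and 58.1 and 64.1 CPM in pDC WT. Dec205 cells reached 81.8% of the pDC level in CKO and 5.20% in WT (interaction 3.96 ± 0.44, adjusted p = 0.0144). Ifi47, a GTPase of host defence, had 130 and 119 CPM in Dec205 CKO and 23.7 and 34.0 CPM in Dec205 WT, against 340 and 325 CPM in pDC CKO and 264 and 251 CPM in pDC WT (interaction 1.74 ± 0.22, adjusted p = 0.0293).

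The second group of narrowed genes consisted of 24 genes whose interaction was negative. In 10 of them the larger effect was in Dec205 cells and in the other 14 in pDC.

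Cd8a, the coreceptor chain carried by cDC1 in mouse spleen, had 70.8 and 70.9 CPM in Dec205 CKO and 782 and 699 CPM in Dec205 WT. In pDC it had 183 and 161 CPM in CKO and 196 and 154 CPM in WT, and the genotypes overlapped. Dec205 cells thus held 41.1% of the pDC level in CKO and 424% in WT, so the order of the subsets turned over. Cd8a was 10.5-fold lower in Dec205 CKO than in Dec205 WT, with an interaction of -3.36 ± 0.19 (edgeR adjusted p = 0.00140). The gene lies on chromosome 6 at 71373427-71379171.

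Other Dec205-side genes fell in Dec205 CKO with no call in pDC. Gclc, the catalytic subunit of the first enzyme of glutathione synthesis, had 92.0 and 102 CPM in Dec205 CKO and 460 and 431 CPM in Dec205 WT, with 46.4 and 35.3 CPM in pDC CKO and 43.4 and 36.2 CPM in pDC WT (interaction -2.24 ± 0.22, adjusted p = 0.0140). Tmem123, a membrane protein, had 1628 and 1450 CPM in Dec205 CKO and 2677 and 2724 CPM in Dec205 WT, with 728 to 784 CPM over the pDC libraries (interaction -0.81 ± 0.11, adjusted p = 0.0346). Arhgap31, which acts on the GTPases Rac and Cdc42, had 43.6 and 54.4 CPM in Dec205 CKO and 121 and 126 CPM in Dec205 WT, with 8.58 and 5.49 CPM in pDC CKO and 3.21 and 3.69 CPM in pDC WT (interaction -2.36 ± 0.34, adjusted p = 0.0384).

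Bcl2l14, a Bcl2 family member, was the only 1 of the 61 genes called in both subsets. It fell to 159 and 166 CPM in Dec205 CKO, against 399 and 341 CPM in Dec205 WT, and rose to 23.7 and 16.8 CPM in pDC CKO, against 5.98 and 3.69 CPM in pDC WT. The gap thus shrank from both sides, by an interaction of -3.26 ± 0.33 (adjusted p = 0.0140). Bcl2l14 starts 126170 bases beyond the end of Etv6 on chromosome 6, so it lies close to the targeted gene. Whether the altered Etv6 allele itself acts on its transcript was not tested.

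The genes that narrowed mainly from the pDC side were low in pDC and higher in Dec205. Cacnb3, a calcium channel beta subunit, had 3.72 and 4.79 CPM in pDC CKO and 0.870 and 0.103 CPM in pDC WT, while Dec205 had 281 and 260 CPM in CKO and 524 and 517 CPM in WT. Its interaction of -4.09 ± 0.53 was called (adjusted p = 0.0293), although neither subset was called alone. Cd24a, heat-stable antigen and a surface marker of cDC1, had 204 and 234 CPM in pDC CKO and 84.5 and 94.2 CPM in pDC WT, while Dec205 had 421 and 420 CPM in CKO and 357 and 392 CPM in WT (interaction -1.13 ± 0.15, adjusted p = 0.0319). Stmn1, a microtubule-destabilising protein of dividing cells, had 27.6 and 27.1 CPM in pDC CKO and 8.53 and 8.87 CPM in pDC WT, while Dec205 had 137 and 119 CPM in CKO and 108 and 108 CPM in WT (interaction -1.41 ± 0.19, adjusted p = 0.0319).

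Cdca7, Rab38 and Cdkn2b had 0 counts in both pDC WT libraries, so their folds are lower bounds against 3 counts over the group. Cdca7, a cell division-associated gene, had 2.97 and 1.52 CPM in pDC CKO and was at least 28.4-fold higher there, while Dec205 had 26.1 and 17.2 CPM in CKO and 21.8 and 28.8 CPM in WT. Rab38, a small GTPase of lysosome-related organelles, had 0.971 and 0.653 CPM in pDC CKO and was at least 10.3-fold higher, while Dec205 had 3.99 and 6.70 CPM in CKO and 16.2 and 19.8 CPM in WT. Cdkn2b, an inhibitor of cyclin-dependent kinases, had 0.540 and 0.490 CPM in pDC CKO and was at least 6.50-fold higher, while Dec205 had 3.99 and 5.53 CPM in CKO and 22.3 and 19.3 CPM in WT. All 3 pDC levels in CKO are low, and of the 8 fits without 1 library Cdca7 and Cdkn2b stayed called in 1 each and Rab38 in 0.

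**Figure D3:**
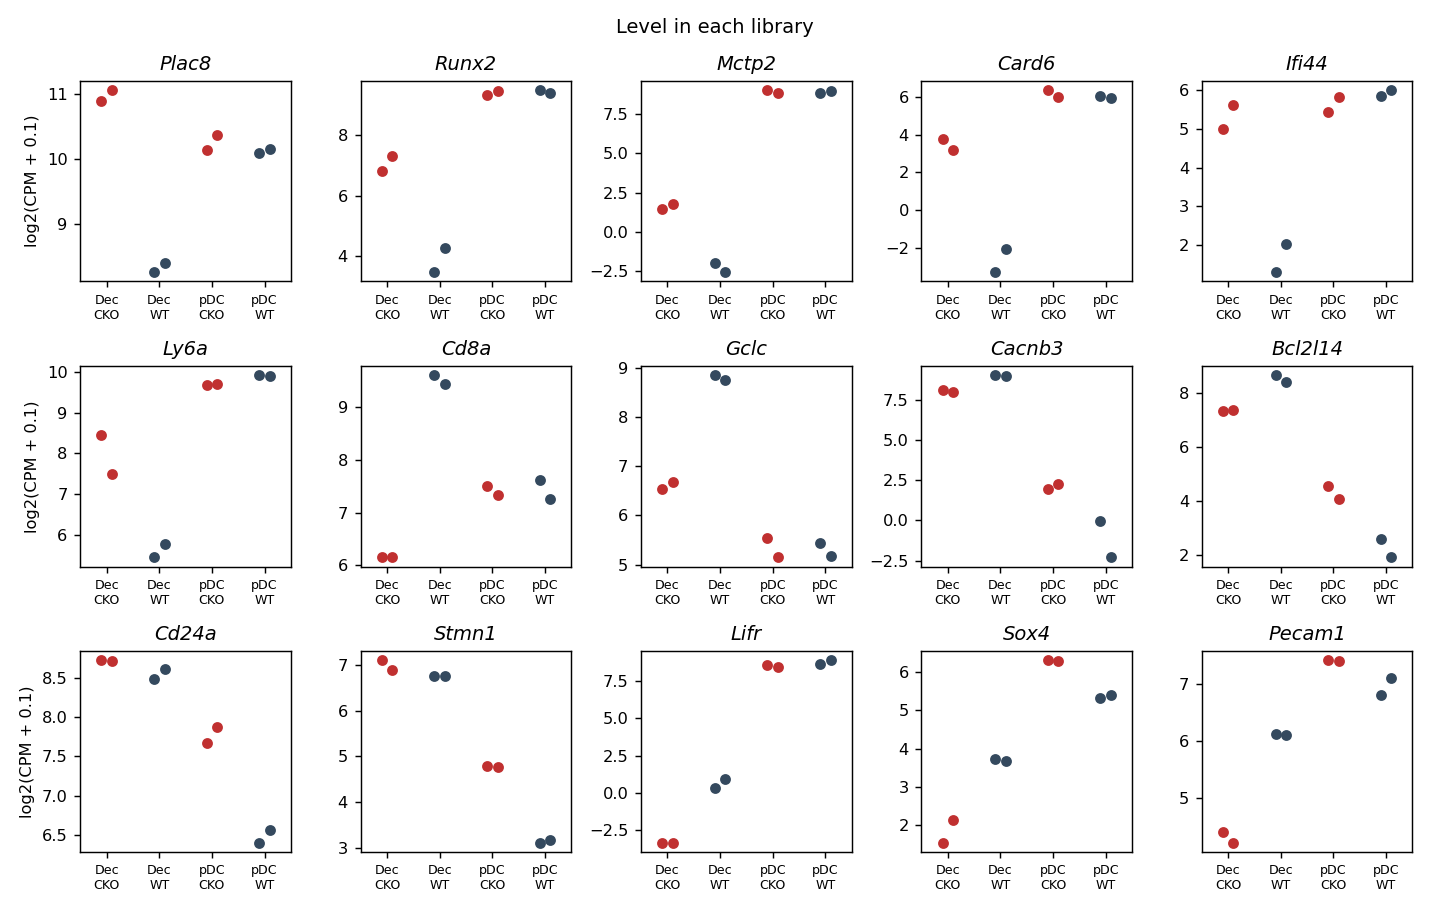
Level of 15 of the described genes in each library, as log2(CPM + 0.1), with CKO in red and WT in dark blue and 2 libraries per group; each panel has its own axis. Plac8 and Cd8a change the order of Dec205 and pDC between genotypes, Mctp2 stays far below pDC in Dec205 CKO, and Lifr, Sox4 and Pecam1 are lower in Dec205 CKO and stay high in pDC.

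The gap widened in 12 genes. Lifr, the receptor of leukaemia inhibitory factor, had 0 counts in both Dec205 CKO libraries and 1.14 and 1.83 CPM in Dec205 WT, against 371 and 347 CPM in pDC CKO and 386 and 466 CPM in pDC WT. It was at least 17-fold lower in Dec205 CKO, from a WT level that was already 0.348% of that in pDC. The histamine receptor gene Hrh1 had 0 counts in Dec205 CKO and 3.8 and 2.91 CPM in Dec205 WT, with 35.9 and 22.6 CPM in pDC CKO and 10.2 and 24.7 CPM in pDC WT, and was at least 38.5-fold lower in Dec205 CKO. Lifr stayed called in 2 of the 8 fits without 1 library, and Hrh1 in 0.

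Sox4, a transcription factor of the HMG-box family, moved apart in both subsets. It had 2.83 and 4.29 CPM in Dec205 CKO and 13.1 and 12.6 CPM in Dec205 WT, and 78.5 and 77.7 CPM in pDC CKO and 40.0 and 41.6 CPM in pDC WT. Dec205 cells held 4.56% of the pDC level in CKO and 31.4% in WT (interaction -2.79 ± 0.31, adjusted p = 0.0144), with a call in Dec205 and none in pDC. Pecam1, the adhesion protein CD31, had 21.2 and 18.5 CPM in Dec205 CKO and 69.0 and 68.8 CPM in Dec205 WT, and 170 and 168 CPM in pDC CKO and 111 and 137 CPM in pDC WT (interaction -2.24 ± 0.20, adjusted p = 0.00757). Clec2i, a C-type lectin-like surface protein, had 25.7 and 24.1 CPM in Dec205 CKO and 58.2 and 55.2 CPM in Dec205 WT, and 84.9 and 94.8 CPM in pDC CKO and 55.4 and 49.1 CPM in pDC WT (interaction -1.97 ± 0.21, adjusted p = 0.0143). Clec2i ends 5137531 bases before the start of Etv6 on chromosome 6, and whether this position plays a part was not tested.

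In 4 of the 12 genes the interaction was positive and Dec205 was the higher subset on average. Col17a1, a transmembrane collagen of epithelial attachment, had 154 and 210 CPM in Dec205 CKO and 7.52 and 3.72 CPM in Dec205 WT, with 30.9 and 35.4 CPM in pDC CKO and 14.6 and 8.10 CPM in pDC WT (interaction 3.48 ± 0.52, adjusted p = 0.0448). Tlr12, a Toll-like receptor for parasite profilin, had 331 and 367 CPM in Dec205 CKO and 186 and 182 CPM in Dec205 WT, and 171 to 202 CPM over the pDC libraries (interaction 1.01 ± 0.15, adjusted p = 0.0468). Tlr12 was close to equal between the subsets in WT and higher in Dec205 in CKO. Of the 8 fits without 1 library, Col17a1 stayed called in 1 and Tlr12 in 0. The other 5 widened genes, named after their values were seen, were E330020D12Rik, Hipk3, Sh3bp4, Stard3 and Gpr137b-ps.

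**Figure D4:**
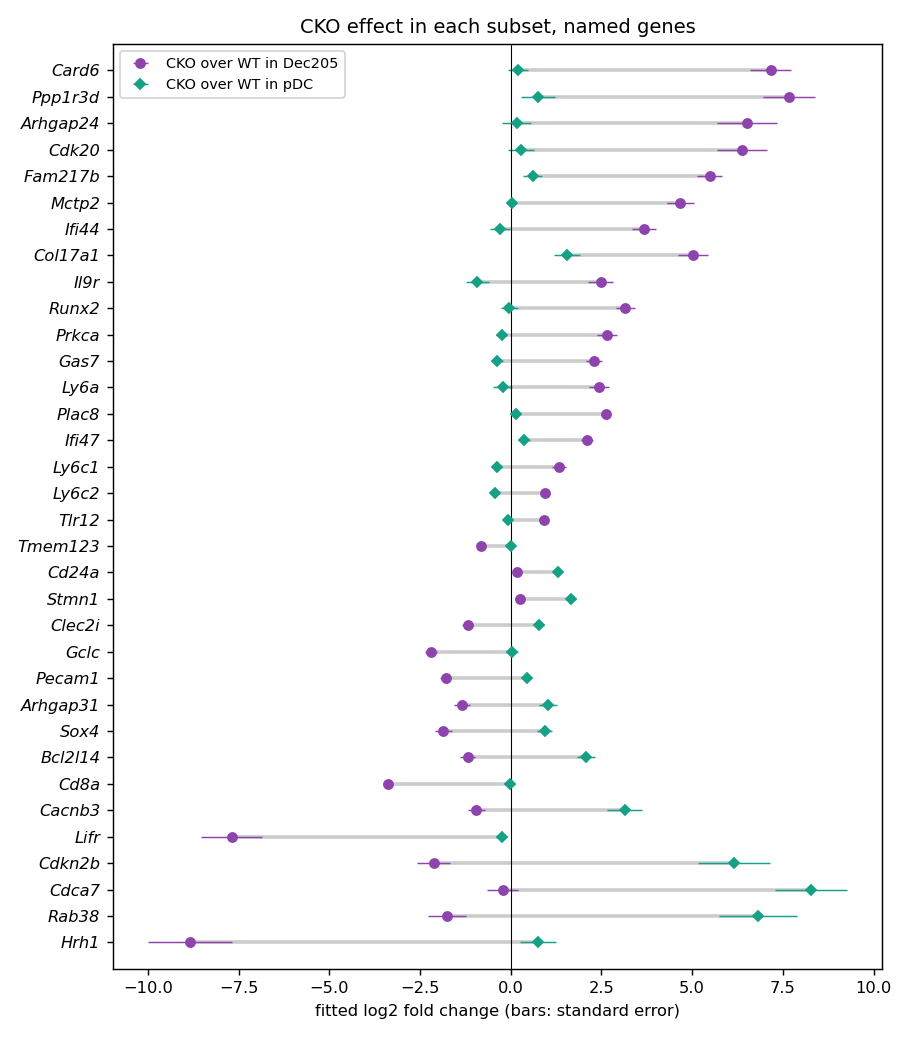
Fitted log2 fold change of CKO over WT in Dec205 (purple circles) and in pDC (green diamonds) for the 34 called genes picked by the naming rule, with standard errors; the grey bar between the points is the interaction. In the upper genes the Dec205 value lies to the right of the pDC value, and the pDC values of Ppp1r3d and Col17a1 (above 0) and Il9r (below 0) are also away from 0; values of Lifr, Hrh1, Cdca7, Rab38 and Cdkn2b depend on the model, because 1 group has 0 counts.

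Among 38 genes of pDC identity, the interaction was called in 4 (against 0.48% of all tested genes), positive in Runx2, Ly6a and Ly6c2 and negative in Lifr. Of all 38, called or not, 68.4% lay in the narrowing direction, against 56.8% of all genes. Their median fold change of CKO over WT was 0.24 in Dec205 and -0.05 in pDC, on the log2 scale, against 0.00 and 0.02 over all genes. Their median interaction was 0.32 with all 8 libraries and 0.35 without Dec205 CKO replicate 1. In Dec205 CKO, 7 of them rose (against 1.31% of all tested genes) and 2 fell (against 0.849%), and in pDC none was called (against 0.338%). Tcf4, the factor that defines pDC, rose to 90.4 and 62.2 CPM in Dec205 CKO, against 42.4 and 30.1 CPM in Dec205 WT, and had 1360 and 1365 CPM in pDC CKO and 1434 and 1543 CPM in pDC WT. The surface protein gene Ly6d rose to 152 and 52.8 CPM in Dec205 CKO, against 19.6 and 20.7 CPM in Dec205 WT, with 2782 and 3414 CPM in pDC CKO and 2369 and 2233 CPM in pDC WT. Neither interaction was called (adjusted p = 0.157 for Tcf4 and 0.275 for Ly6d), and both Dec205 CKO values were higher in replicate 1. Ly6d and Tcf4 are also expressed by B cells, whose transcripts were highest in that library among the Dec205 libraries, and the part of those transcripts in these values was not tested. Siglech, a lectin on pDC, had 4.57 and 2.67 CPM in Dec205 CKO and 1.75 and 1.02 CPM in Dec205 WT, against 5506 to 6071 CPM over the pDC libraries, with no call in either subset.

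Among 32 genes of cDC1 identity, the interaction was called in 3 (against 0.48% of all tested genes), positive in Tlr12 and negative in Cd8a and Cd24a. Of all 32, called or not, 43.8% lay in the narrowing direction, against 56.8% of all genes. Xcr1, the chemokine receptor of cDC1, had 1583 and 1791 CPM in Dec205 CKO and 1277 and 1229 CPM in Dec205 WT, and 0.256 to 2.12 CPM over the pDC libraries. Batf3 had 103 and 104 CPM in Dec205 CKO and 160 and 135 CPM in Dec205 WT, and Irf8, which both subsets use, had 4122 and 4411 CPM in Dec205 CKO and 3838 and 3612 CPM in Dec205 WT. The adjusted p of their interactions was between 0.529 and 1.

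The 60 type I interferon response genes had a median log2 fold change of 0.69 in Dec205 and 0.37 in pDC, with a median interaction of 0.54 on the log2 scale against -0.02 over all genes. In Dec205 CKO 17 rose (against 1.31% of all tested genes) and none fell, and in pDC 3 rose (against 0.315%) and none fell. The antiviral gene Oas1a had 32.4 and 28.9 CPM in Dec205 CKO and 2.96 and 0.880 CPM in Dec205 WT, and 6.21 and 6.26 CPM in pDC CKO and 2.99 and 4.21 CPM in pDC WT. Usp18, a brake on interferon signalling, rose in pDC instead, to 124 and 131 CPM in CKO, against 64.6 and 62.7 CPM in WT, with 75.5 and 81.7 CPM in Dec205 CKO and 62.4 and 63.0 CPM in Dec205 WT. The interaction was called in 2 of the 60 (against 0.48% of all), Ifi44 and Ifi47, both positive, and 65.0% of the list lay in the narrowing direction, against 56.8% of all genes.

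The 48 genes of DNA replication and mitosis had a median interaction of -0.94, from a median fold change of 0.14 in Dec205 and 1.09 in pDC. Of the 48, 43 (89.6%) lay in the narrowing direction, against 56.8% of all genes. Stmn1 was the only member with a called interaction, and it stayed called in 0 of the 8 fits without 1 library. Top2a, a topoisomerase of dividing cells, had 27.1 and 15.1 CPM in pDC CKO and 3.32 and 2.67 CPM in pDC WT, and 106 and 81.4 CPM in Dec205 CKO and 73.3 and 106 CPM in Dec205 WT. It rose in pDC (2.82 ± 0.35, adjusted p = 0.0237) and its interaction missed the threshold (-2.75 ± 0.46, adjusted p = 0.0646). The summed level of the list was 841 and 765 CPM in pDC CKO and 560 and 564 CPM in pDC WT, against 3213 and 2389 CPM in Dec205 CKO and 2500 and 2582 CPM in Dec205 WT. Without pDC CKO replicate 1 the median interaction was -0.61.

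The 38 genes of dendritic cell maturation had a median log2 fold change of -0.36 in Dec205 and 0.00 in pDC. Of these genes, 6 fell (against 0.849% of all tested genes) and none rose in Dec205 CKO, and 1 rose in pDC (against 0.315%). The interaction was called in 2 (against 0.48%), Cacnb3 and Tmem123. Relb, an NF-kB subunit, had 209 and 221 CPM in Dec205 CKO and 394 and 369 CPM in Dec205 WT, and 49.7 to 63.1 CPM over the pDC libraries. The chemokine receptor Ccr7, which guides mature dendritic cells, had 2023 and 2032 CPM in Dec205 CKO and 3688 and 3734 CPM in Dec205 WT, and 64.5 and 43.1 CPM in pDC CKO and 87.4 and 92.1 CPM in pDC WT. Ccr7 was lower in CKO in both subsets and its interaction was close to 0 (-0.14, adjusted p = 0.918). Without Dec205 CKO replicate 1 the median interaction of the list was -0.59, against -0.33 with all 8 libraries.

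**Figure D5:**
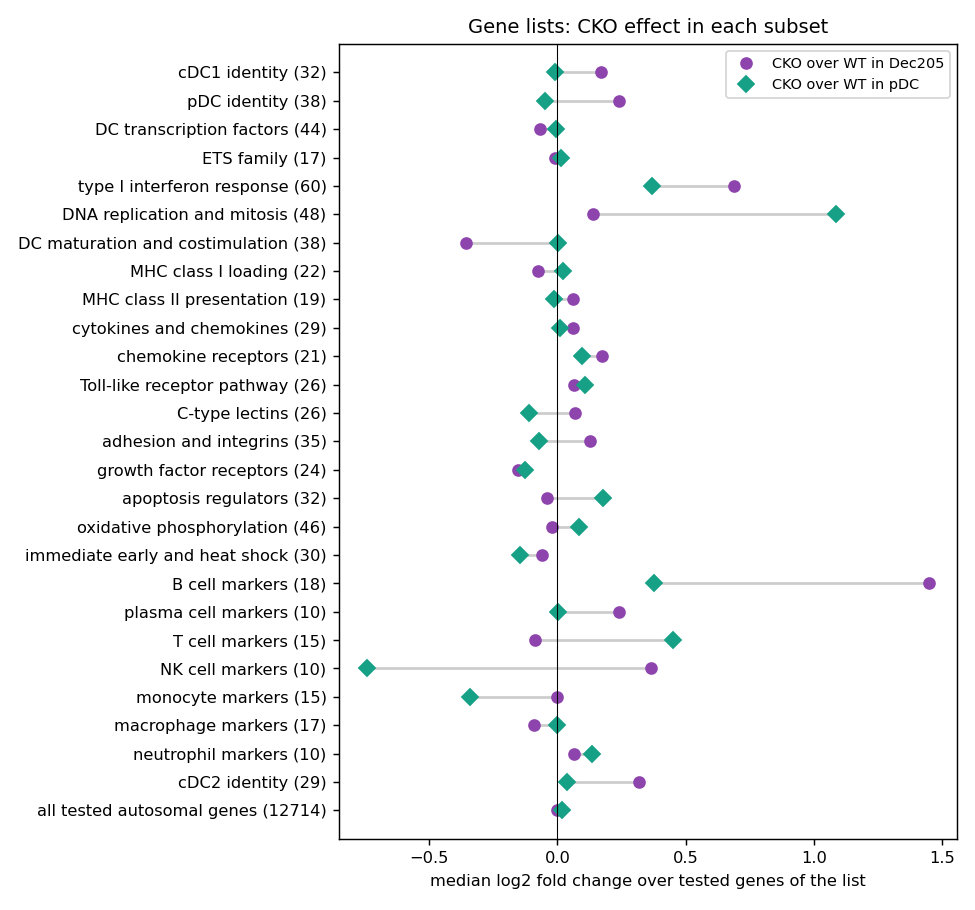
Median log2 fold change of CKO over WT in Dec205 (purple circles) and pDC (green diamonds) over the tested genes of each list, with their number in brackets; lists with fewer than 10 tested genes are left out. Interferon response genes lie at 0.69 in Dec205 and 0.37 in pDC, DNA replication genes at 0.14 and 1.09, maturation genes at -0.36 and 0.00, and all tested genes at 0.00 and 0.02.

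Only 0.48% of all tested genes were called, so most lists of this length would hold none by that share alone. Of the 27 lists examined, 15 had no member with a called interaction. These included the ETS family, antigen loading on MHC class I and class II, cytokines and chemokine receptors, oxidative phosphorylation and most marker lists of other cell types. The 29 members named for these lists, which are the most abundant of each, had an adjusted p of 0.245 or more. Some of these lists were close to absent: the neutrophil markers summed to 7.15 to 17.8 CPM per library and the NK cell markers to 7.18 to 92.4 CPM. Cd74, the MHC class II chaperone, had 45061 and 50895 CPM in Dec205 CKO and 47774 and 42041 CPM in Dec205 WT, against 14728 to 16153 CPM over the pDC libraries. The ETS factor Spi1 had 657 and 668 CPM in Dec205 CKO and 792 and 707 CPM in Dec205 WT, and 125 and 127 CPM in pDC CKO and 110 and 114 CPM in pDC WT, and the ETS factor Spib had 77.9 and 52.7 CPM in Dec205 CKO and 43.1 and 25.9 CPM in Dec205 WT, and 655 to 940 CPM over the pDC libraries. The 18 tested B cell markers had a median log2 fold change of 1.45 in Dec205 and 0.38 in pDC, with a median interaction of 0.94. Of them, 5 (27.8%) narrowed, against 56.8% of all genes, so most of this list moved in the widening direction.

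Most other subset pairs also lay closer together in CKO. Over the 13317 genes tested with all 16 libraries, the root mean square distance changed by -8.13% between Dec205 and pDC, by -7.18% between pDC and Esamlo, by -6.13% between Dec205 and Esamlo, by -5.38% between pDC and Esamhi, by -15.7% between Esamlo and Esamhi and by -0.364% between Dec205 and Esamhi. By the product of separate replicates, the changes in the same order were -7.64%, -5.59%, -3.75%, -4.89%, -14.0% and 0.672%, so the direction for Dec205 and Esamhi depended on the measure and the fall for Dec205 and Esamlo was smaller. These pairs share libraries, and whether they differ was not tested.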

How the data were processed

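Of 16 RNA-seq libraries from sorted splenic dendritic cells, the 8 of Dec205 and pDC are compared here. Per the labels' protocols, the kits were PicoPure for RNA and SMART-seq v4 for cDNA. The second amplifies by PCR with no molecular identifiers and keeps no strand information. Per the submitters' processing notes, reads were handled with bcl2fastq, with Trimmomatic 0.36 and with Bowtie2 2.2.9 (build mm10). How reads were counted, with which annotation and strand setting, is not given in the sources used here. An aligner without splicing, such as Bowtie2, may lose junction reads when run on a genome.

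The authors deposited raw counts per gene as whole numbers, with 1 column per library, and these counts were used without change. Genes were placed by Entrez identifier in the RefSeq annotation of GRCm38.p6, which located 24061 of 24116 and left 55 without a position. Counts were scaled by TMM and tested with edgeR 4.0.16 (R 4.3.3) in 1 quasi-likelihood fit of the 8 libraries with 4 group coefficients and 4 residual degrees of freedom. The filter was filterByExpr, and Benjamini-Hochberg adjustment ran over all 13165 tested genes, sex-linked ones included. The fit kept to 8 libraries because replicate spread is known to differ between subsets. The threshold for a call was an adjusted p of 0.05. CPM use TMM-scaled library sizes, folds are ratios of group mean CPM, and fold changes with SE are fitted log2 values. Distances use log2 CPM with a prior count of 2. A group at 0 was given a floor of 3 counts over the group, between 0.0792 and 0.107 CPM, and floors and intervals cover counting error only. The fits were tested on simulated data.

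Named genes were called autosomal genes with a group mean of at least 10 CPM, a proper gene name and the same sign in every choice of 1 library per group. These were the 12 with the largest positive and the 12 with the largest negative interaction, 6 each with the greatest rise and fall of squared gap, up to 4 called members of each gene list (or the 2 most abundant where none was called), and Etv6. Genes given for the marker, sex and list checks (Klk1, Xist, Ddx3y, Tcf4, Ly6d, Siglech, Xcr1, Batf3, Irf8, Oas1a, Usp18, Top2a, Relb, Ms4a4c, Ccr2, Csf1r and Chil3) fall outside this rule and were named after their values were seen, as were those marked so in the text. The comparison, lists and tests were chosen with earlier results of these data known, and 10 list entries had no row in the table. Alternatives were other size factors, DESeq2 1.42.0, no filter, all 16 libraries, a replicate block, a fold threshold, other distance measures and leaving out each library.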

Additional observations from a re-analysis of the deposited data

Results flagged for a closer look

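The effect of CKO differed between Dec205 and pDC by the test of the difference itself in 61 autosomal genes, which is what singled out each gene given here. Values are interaction log2 fold changes, Dec205 minus pDC. The positive ones were Card6 6.98, Ppp1r3d 6.92, Arhgap24 6.36, Cdk20 6.09, Fam217b 4.88, Mctp2 4.65, Ifi44 3.96, Col17a1 3.48, Il9r 3.40, Runx2 3.19, Prkca 2.89, Gas7 2.68, Ly6a 2.66, Plac8 2.5, Ifi47 1.74, Ly6c1 1.72, Ly6c2 1.38 and Tlr12 1.01. The negative ones were Tmem123 -0.81, Cd24a -1.13, Stmn1 -1.41, Clec2i -1.97, Gclc -2.24, Pecam1 -2.24, Arhgap31 -2.36, Sox4 -2.79, Bcl2l14 -3.26, Cd8a -3.36, Cacnb3 -4.09, Lifr -7.44, Cdkn2b -8.29, Cdca7 -8.50, Rab38 -8.57 and Hrh1 -9.59. The last 5 of these have a group at 0 counts, so their fitted size is no bound.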

How the results depend on the processing

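All 61 called genes kept the direction of their interaction under every alternative fitted, which the way they were picked largely fixed. The number called did not hold. It was 64 with DESeq2's size factors, 65 with library size alone, 69 with libraries thinned to equal depth (an alternative chosen after seeing the data), 125 with no filter, 322 with all 16 libraries, 407 by DESeq2's test, 18 against a fold of 1.5 and 5 to 93 without each library in turn. With the replicate number as a block it was 25, with 20 narrowed and 5 widened. Replicate differences over all genes correlated by 0.00576 to 0.0350 between groups. Such values show no strong effect shared by replicate number, but cannot tell whether libraries of the same number share an animal. Narrowed genes numbered 237 with all 16 libraries, 91 with no filter and 5 to 76 without each library, and widened genes 85, 34 and 0 to 19. The share that narrowed among called genes ran from 70.8% to 100%.

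The CKO effect was called in 892 genes of Dec205 cells with all 16 libraries and in 142 to 290 without each library. In pDC it was called in 242 genes with all 16 libraries, 97 with no filter and 10 to 50 without each library. Genes separating the subsets in CKO numbered 2917 to 4674 without each library. The change in distance was -11.1% by 1 minus the Spearman correlation, -13.2% to -3.78% without each library, and -8.56% to -7.49% under the other alternatives. Leaving out 1 library leaves a group mean resting on a single one, which is assumed to vary like the other groups. It also adds replicate noise to the distance of that genotype. Without each library, the median interaction ran from 0.10 to 0.38 for cDC1 identity, -0.59 to -0.29 for maturation, -1.24 to -0.61 for DNA replication and 0.28 to 0.54 for pDC identity.

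A sign change was seen only in genes that were not called. H2-D1 was at -0.00351 with all 16 libraries and ran from -0.044 to 0.11 without each library. Over the same fits Ccr7 ran from -0.40 to 0.18, Cd37 from -0.50 to 0.10, Cd7 from -0.69 to 0.010, Hba-a2 from -0.43 to 0.28, S100a8 from -1.01 to 0.075 and Tbx21 from -5.38 to 1.75. With 2 libraries per group, low levels such as those of pDC-side genes in Dec205 WT rest on few counts.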
